A study of Sus scrofa with 2 samples.

Results

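Mitochondrial ribosomal proteins are encoded in the nucleus, made in the cytosol and imported into mitochondria, where they join the mitochondrial rRNAs to form the ribosome that translates the mitochondrially encoded subunits of the respiratory chain. The large subunit (genes named MRPL) holds the peptidyl transferase centre, a stalk that recruits translation factors, a central protuberance and the exit tunnel. The small subunit (genes named MRPS) decodes the mRNA. In the ovary, granulosa cells surround the oocyte, and inherited variants of several genes of mitochondrial translation are known to cause ovarian insufficiency in people. The genes described here are the entries of type mRNA whose symbol starts with MRPL or MRPS followed by a digit. They number 62 of 34570 entries, 38 for the large and 24 for the small subunit. They were chosen by name, with no use of their values, although earlier results of these data were known.

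The RNA came from follicular granulosa cells of female Chinese Erhualian pigs. The control group received NC-siRNA and the other group SMAD4-siRNA, against the SMAD that the TGF-beta, activin and BMP pathways share. Per the labels' protocols, RNA of 3 individuals per group was pooled before a library was made, so each group has 1 library. The sources used here do not give age, the duration of treatment, or whether the same animals went into both pools. Every difference below is between 2 libraries of pooled animals, and the conditions cannot be tested against each other with 1 library in each group. Fewer cells of a type and less RNA per cell cannot be told apart in such pools.

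Values are upper-quartile RPKM, the unit named by the deposited tables. They are per transcript length, so levels of different genes can be compared. Whole reads were recovered from the values as lower bounds, and they came to at least 17680952 for control and 17394711 for SMAD4 siRNA. SMAD4, the targeted gene, was at 85.0 with control siRNA and 47.9 with SMAD4 siRNA, for a ratio of 0.563 (0.497 to 0.639). The range in parentheses after this and every later ratio is a 95% counting interval, exact Clopper-Pearson on the split of a gene's reads. It covers counting error only and is not adjusted for the number of genes. Where a gene had more reads than were recovered, its interval is too wide. Of 12 granulosa markers, 10 were measured, among them FOXL2 at 132 and 146 and WT1 at 521 and 509, while AMH and CYP19A1 were listed at 0 and FSHR had 9 and 7 reads. AMHR2 was at 17.2 and 8.49 and INHBA at 663 and 868. The summed level of the granulosa markers was 2264 and 2392, while 4 of the 10 had a log2 ratio above 0. Of 8 theca and stroma markers 5 were measured, summing to 53327 and 44899, with CYP17A1, INSL3 and LHCGR at 0. Most of that sum was COL3A1, at 37062 and 28474, and COL1A1, at 13567 and 14344. Of these 5 markers, 1 had a log2 ratio above 0. Of 8 leukocyte markers, 3 were measured, summing to 582 and 569, nearly all of it CD14, with CD163 and CD3E at 0. Of 6 endothelial markers, 4 were measured, summing to 445 and 341, with TEK at 0. The part of these other cells in the results below was not tested.

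Members of both subunits were on the higher side in the SMAD4 siRNA library by a small amount. Log2 ratios were taken after adding 1 to both values, SMAD4 siRNA over control, where the mean of both values was 1 or more, and 60 members passed that minimum. The other two, MRPL37 and MRPS15, were listed at 0 in both libraries, and a listed 0 can be a failed estimate. Each of the 60 had at least 105 reads over both libraries. The log2 ratio was above 0 for 44 of 60 members, or 73.3%, against 45.5% of all 16609 genes past the same minimum and 42.1% of the 9664 genes with at least 100 reads. The median log2 ratio of the members was 0.12, while the medians of those gene sets were -0.05 and -0.06. Relative to all genes with at least 100 reads, 27 members lay above the upper quartile of log2 ratios, 0.14, and 2 below the lower quartile, -0.26.

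The large subunit had 25 of 37 measured members above 0, with a median log2 ratio of 0.10, or 1.07-fold. The small subunit had 19 of 23 above 0, with a median of 0.14, or 1.10-fold. The middle 50% of members ran from -0.02 to 0.19 for the large and from 0.02 to 0.26 for the small subunit, so the subunits overlapped over most of their range. The difference of medians, large minus small, was -0.05. It came to 0.012 when mitoribosomal proteins under other names were added, so no order of the subunits can be read from it. No test of that difference was made, since members of a library are not replicates.

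**Figure D1:**
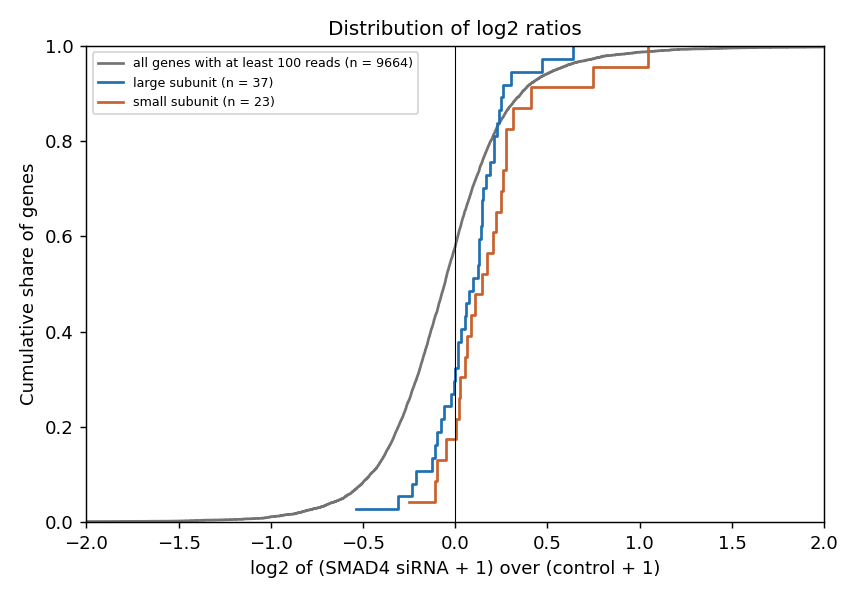
Cumulative share of genes by log2 ratio for the 37 large subunit members, the 23 small subunit members and the 9664 genes with at least 100 reads. Both subunit curves lie to the right of the curve of all genes over most of the range, and they lie close to each other.

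Changes past 2-fold were nearly absent. MRPS23 alone was higher by at least 2-fold, and 0 members were lower by at least 2-fold. Among all measured genes 7.17% were higher and 6.68% lower by that much, and among genes with at least 100 reads 1.32% and 1.12%. The share of the members is near that of well-covered genes. Counting intervals lay wholly above 1 for 17 of 60 members, 28.3%, against 12.7% of all measured genes and 17.6% of those with at least 100 reads. They lay wholly below 1 for 3 members, 5%, against 21.5% and 32.4%. Of the 17, the large subunit gave 11 and the small subunit 6, and of the 3 the large subunit gave 2 and the small subunit 1.

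Summed over members, the large subunit went from 35325 with control siRNA to 38427 with SMAD4 siRNA, for a ratio of 1.09. The small subunit went from 14656 to 16212, for a ratio of 1.11. Over all genes the summed value had a ratio of 0.921. The members held 0.354% of the summed value of the control library and 0.420% of that of the SMAD4 siRNA library. With both libraries rescaled to equal sums, each plain log2 ratio moves up by 0.12. On that scale 54 of 60 members were above 0, against 58.0% of genes with at least 100 reads, and the medians were 0.21 for the large and 0.26 for the small subunit. Centred on the median of all measured genes, 47 of 60 were above 0, against 48.4% of genes with at least 100 reads, and the medians were 0.14 and 0.19.

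Levels spanned 2 orders of magnitude within a ribosome whose proteins mostly occur in equal number. The order hardly differed between the libraries: across the 60 members, which share both libraries, Spearman's rho between control and SMAD4 siRNA values was 0.989. The median level of large subunit members was 708 with control and 693 with SMAD4 siRNA, and that of small subunit members was 475 and 450. Both medians of levels were slightly lower in the SMAD4 siRNA library, although the median of the members' own ratios was above 1 for each subunit. The quartiles of levels overlapped, at 357 to 965 for the large and 232 to 936 for the small subunit in the control library.

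In the large subunit MRPL17, the counterpart of bacterial L17, had the highest level, 6079 in the control and 6925 in the SMAD4 siRNA library. That was 17.2% and 18.0% of the summed value of its subunit. MRPL28 followed with 3203 and 3955, then MRPL40, a protein of the central protuberance, with 2750 and 3007. The lowest were MRPL47 at 54.6 and 85.5, MRPL39 at 88.1 and 70.9, and MRPL50 at 159 and 135. In the small subunit the highest was MRPS34, which the subunit needs for its stability, at 2959 and 3065. MRPS11, a protein of the platform, had 1466 and 1820, and MRPS7, of the head, 1201 and 1383. The lowest small subunit levels were those of MRPS35 at 61.2 and 71.4, MRPS23 at 65.1 and 135, and MRPS36 at 81.9 and 99.2. The highest member stood 111-fold above the lowest in the large subunit and 48.3-fold in the small subunit of the control library. The 3 highest members of each subunit kept their places in the SMAD4 siRNA library, and MRPS18B came next to them there, having ranked sixth of the small subunit in the control library.

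**Figure D2:**
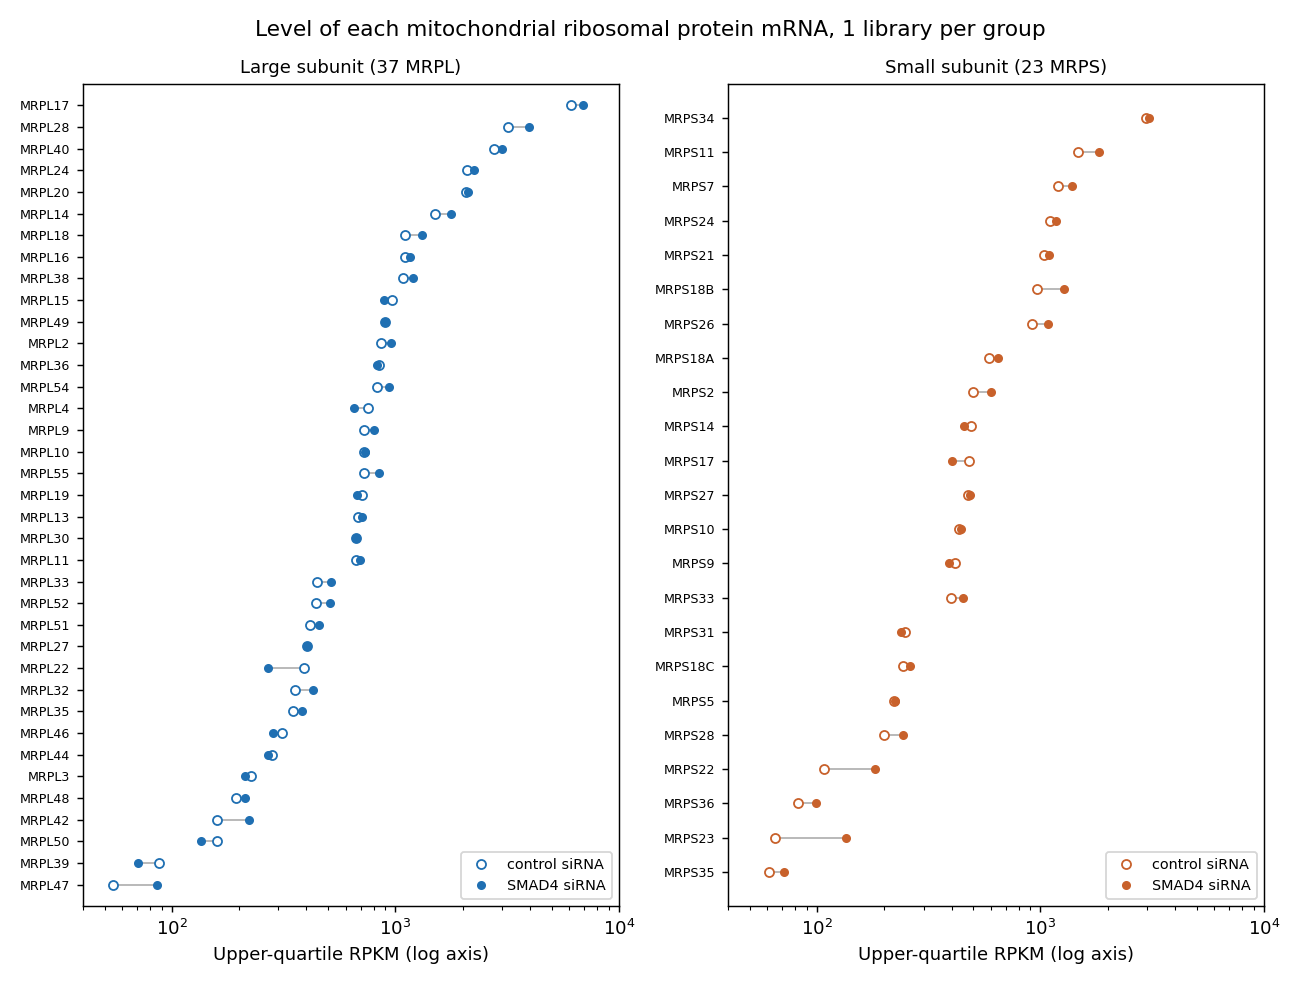
Level of each of the 60 measured members on a log axis of upper-quartile RPKM, with open circles for the control and filled circles for the SMAD4 siRNA library, sorted by control level. Most pairs of circles nearly touch, from MRPL17 at the top of the large subunit to MRPL47 at its bottom, while MRPS23 and MRPS22 are visibly apart.

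The large subunit members are given next by the place or role of their protein, an order drawn up after their values were seen, which carries no count or test. MRPL2, the counterpart of the bacterial L2 beside that centre, went from 862 to 954, for a ratio of 1.11 (0.982 to 1.25). MRPL16 was at 1.05 and MRPL27, whose bacterial counterpart reaches into the centre, at 1.01, both with intervals that hold 1. A second entry that the reference table names MRPL27 went from 611 to 757, for a ratio of 1.24 (1.09 to 1.40), so reads of this gene may be split over entries. MRPL3, an early assembly protein in bacteria, went from 227 to 212, for a ratio of 0.935 (0.796 to 1.10). MRPL20, whose bacterial counterpart is also needed early, was at 1.02 (0.949 to 1.10).

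MRPL22, which lines the exit tunnel, had the lowest ratio of the subunit, 0.688 (0.529 to 0.891), with values of 390 and 268 on 140 and 106 reads. MRPL4, its neighbour in the tunnel wall, went from 758 to 653, for a ratio of 0.862 (0.795 to 0.935). These were the lower-side members of the large subunit with intervals that exclude 1. MRPL24, at the tunnel's exit, went from 2099 to 2244, for a ratio of 1.07 (1.01 to 1.13), and MRPL47, also at the exit, had the highest ratio of the subunit, 1.57 (1.10 to 2.26), on 51 and 88 reads. MRPL39, a relative of threonyl-tRNA synthetase, was at 0.805 (0.609 to 1.06), and MRPL44, with an RNase III fold, at 0.960 (0.784 to 1.18).

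In the central protuberance MRPL18 went from 1108 to 1315, for a ratio of 1.19 (1.09 to 1.29), MRPL38 from 1084 to 1201, for a ratio of 1.11 (1.04 to 1.18), and MRPL40 had a ratio of 1.09 with an interval from 1.005 to 1.19. MRPL48 was at 1.09 (0.810 to 1.48) and MRPL46 at 0.915 (0.774 to 1.08). At the stalk, MRPL10 and MRPL11, which form its base, were at 1.01 (0.930 to 1.10) and 1.04 (0.926 to 1.16). MRPL54 went from 830 to 933, for a ratio of 1.12 (1.05 to 1.21).

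The remaining large subunit intervals above 1 belonged to 5 genes. MRPL28 went from 3203 to 3955, for a ratio of 1.23 (1.19 to 1.28) on 4288 and 5829 reads, the most of any member over both libraries together. MRPL17 was at 1.14 (1.09 to 1.19). MRPL14, which faces the small subunit, went from 1503 to 1768, for a ratio of 1.18 (1.10 to 1.26). MRPL32, which the mitochondrial m-AAA protease trims before it is built in, went from 357 to 427, for a ratio of 1.20 (1.04 to 1.38). MRPL42, found in mitochondrial but not bacterial ribosomes, went from 160 to 222, for a ratio of 1.39 (1.05 to 1.86) on 83 and 127 reads.

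For the other 13 measured large subunit members the interval held 1. MRPL55, at 1.17 (0.998 to 1.37), MRPL33, at 1.16 (0.965 to 1.39), and MRPL52, at 1.16 (0.995 to 1.34), were the highest of them, followed by MRPL9 at 1.11, MRPL35 at 1.10 and MRPL51 at 1.09. MRPL13 was at 1.04, MRPL30 had 669.8 and 669.6, MRPL49 was at 0.996, MRPL36 at 0.986 and MRPL19 at 0.948. MRPL15 was at 0.926 (0.853 to 1.01), and MRPL50 at 0.850 (0.673 to 1.07). MRPL37, listed at 0 in both libraries, completes the subunit.

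**Figure D3:**
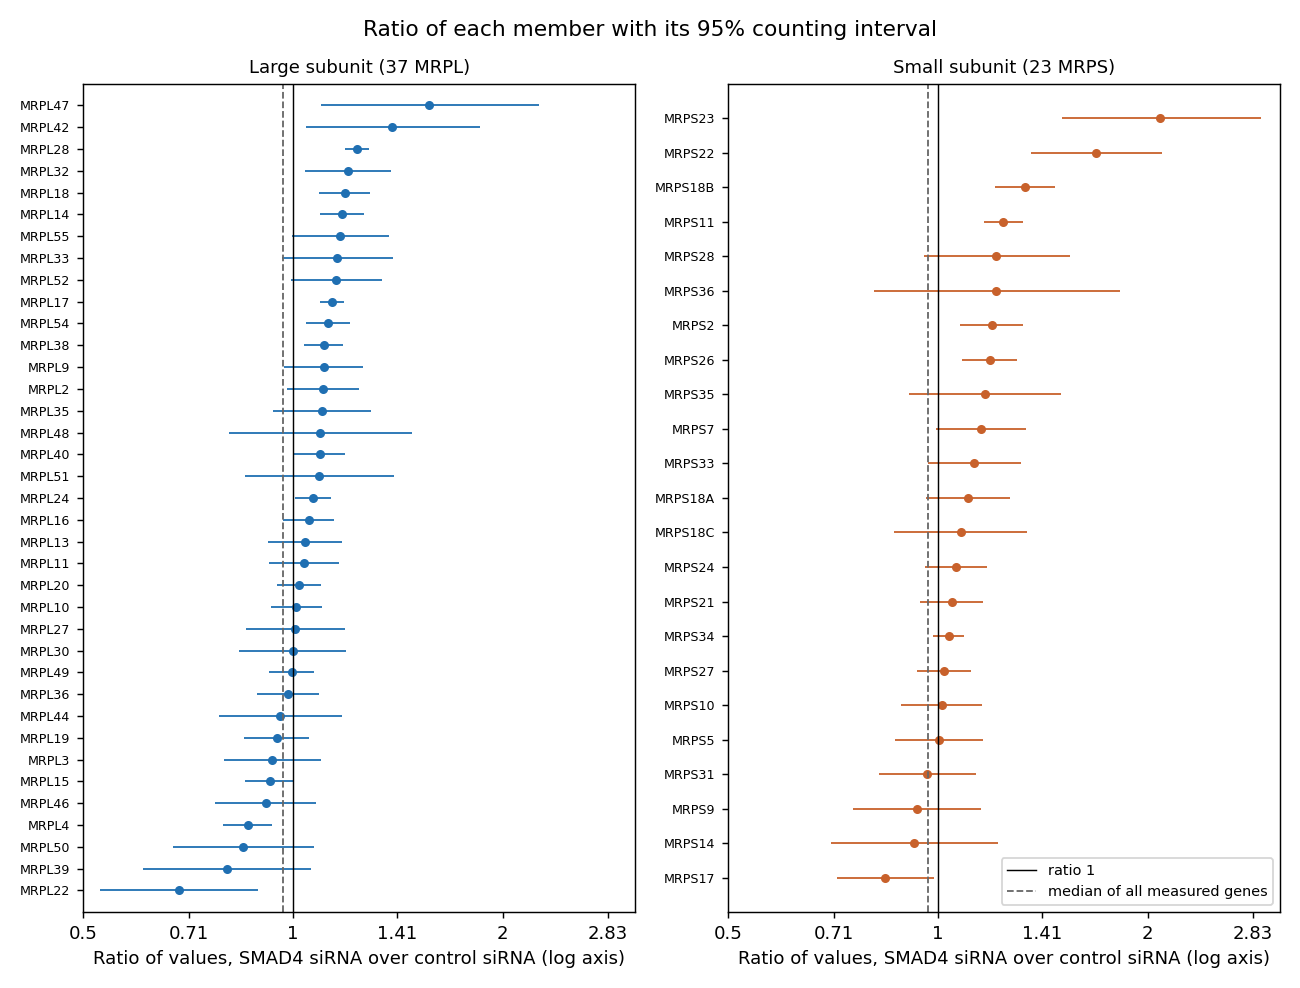
Ratio of SMAD4 siRNA over control values for each measured member on a log axis, with its 95% counting interval, for 37 large and 23 small subunit members. The solid line marks a ratio of 1 and the dashed line the median of all measured genes, 0.968. The widest intervals belong to members with few reads, and MRPS23 at 2.08 and MRPS22 at 1.69 stand apart at the top of the small subunit.

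In the small subunit the highest ratios were those of MRPS23 and MRPS22, which have no counterpart in the bacterial ribosome. MRPS23 went from 65.1 to 135, for a ratio of 2.08 (1.504 to 2.91) on 55 and 126 reads. MRPS22, inherited variants of which have been linked to ovarian insufficiency and to heart muscle disease in people, went from 107 to 181, for a ratio of 1.69 (1.36 to 2.10) on 133 and 247 reads. MRPS18B, described below, was at 1.33 (1.21 to 1.47). MRPS26 went from 912 to 1082, for a ratio of 1.19 (1.08 to 1.30). MRPS27, a pentatricopeptide repeat protein, was at 1.02 (0.932 to 1.12), MRPS34 at 1.04 (0.983 to 1.09), MRPS33 at 1.13 (0.967 to 1.31), MRPS35 at 1.17 on 116 and 149 reads and MRPS31 at 0.965 (0.822 to 1.13). MRPS28, which has a remote bacterial relative, was at 1.21 (0.954 to 1.55).

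Of the small subunit proteins with bacterial counterparts, MRPS11 was at 1.24 (1.16 to 1.33), and MRPS2 went from 501 to 598, for a ratio of 1.20 (1.08 to 1.33). In the head, MRPS7 was at 1.15 (0.993 to 1.34), MRPS10 at 1.01 (0.887 to 1.16), MRPS9 at 0.934 (0.755 to 1.15) and MRPS14 at 0.925 (0.702 to 1.22). At the path of the mRNA, MRPS24 went from 1107 to 1175, for a ratio of 1.06 (0.957 to 1.18), and MRPS5 was at 222 and 223. MRPS21 was at 1.05 (0.942 to 1.16). MRPS17, an rRNA-binding protein, went from 479 to 403, for a ratio of 0.841 (0.717 to 0.987), the lowest of the subunit and its sole interval below 1.

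The 3 relatives of bacterial S18 had different levels. MRPS18B was highest, at 960 and 1279, then MRPS18A, at 586 and 647, then MRPS18C, at 243 and 261. Their ratios were 1.33 (1.21 to 1.47), 1.10 (0.962 to 1.27) and 1.08 (0.866 to 1.34). MRPS18A is a protein of the large subunit despite its name, and MRPS36 is known as a component of the oxoglutarate dehydrogenase complex, with a ratio here of 1.21 (0.809 to 1.82) on 45 and 60 reads. With MRPS18A counted in the large subunit and MRPS36 left out, the medians were 0.111 for the large and 0.108 for the small subunit. MRPS15 was listed at 0 in both libraries.

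Members were also divided by ancestry. The 35 measured members with a bacterial counterpart, taken as MRPL numbers up to 36 together with MRPS2 to MRPS21 and MRPS24 but not MRPS18B, had 25 above 0 and a median log2 ratio of 0.07. The 25 mitochondrion-specific members had 19 above 0 and a median of 0.17, while 42.1% of genes with at least 100 reads were above 0. Within the large subunit the medians were 0.06 and 0.13, and within the small subunit 0.08 and 0.25, where 10 of 11 mitochondrion-specific members were above 0. Intervals wholly above 1 numbered 8 of 35 and 9 of 25, against 17.6% of genes with at least 100 reads, and intervals wholly below 1 numbered 3 of 35 and 0 of 25, against 32.4%. MRPL47 and MRPS28 stand with the specific members by their numbers although they have bacterial relatives, and with both moved the medians were 0.08 and 0.15. The specific members also include MRPS18B, a relative of bacterial S18, and MRPS36, known from the oxoglutarate dehydrogenase complex. Their log2 ratios were 0.41 and 0.27, and the medians were not computed without them, so the division by ancestry is a rough one. No test of this difference was made.

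Read assignment limits some of these values. By the Sscrofa11.1 reference table, which served for names and neighbours, 15 of the 62 member genes overlap another protein-coding gene, and the sources used here do not say whether reads were counted by strand. Among the 15 were MRPS22, which overlaps COPB2, MRPS18B, which overlaps PPP1R10, MRPL47, which overlaps ACTL6A, and MRPL28, which overlaps TMEM8A. MRPL14, which overlaps TMEM63B, MRPS2, which overlaps LOC110258970, and MRPS26, which overlaps GNRH2, were also among them. Each of these named members had an interval above 1. COPB2 was at a ratio of 0.904 (0.861 to 0.948), PPP1R10 at 0.972 (0.882 to 1.07), TMEM8A at 0.904 (0.795 to 1.03) and ACTL6A at 1.21 (0.984 to 1.497). TMEM63B was at 0.789 (0.742 to 0.838), and GNRH2 was listed at 0 in both libraries. Without the overlapping genes, a choice made after seeing the data, 31 of 45 measured members were above 0 and the median log2 ratio was 0.08 in both subunits. Among all genes with at least 100 reads, overlapping or not, 42.1% were above 0.

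The spread of ratios was widest where reads were few. The 11 members with 100 to 300 reads had ratios from 0.688 to 2.08, the 22 with 300 to 1000 reads from 0.841 to 1.69, and the 27 with more from 0.862 to 1.33. The last of these groups held 12 of the 17 intervals above 1. Intervals narrow as reads rise, and the share over all genes of that depth was not computed. Ratio and level were nearly unrelated across the 60 members, with a Spearman's rho of 0.08 between the log2 ratio and the mean value, which share both libraries.

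The RNA partners of these proteins had ratios below 1 as deposited, although rescaling to equal sums takes 16S above 1. The entries 12S and 16S carry the names of the mitochondrial rRNAs of the small and the large subunit. The 12S entry went from 2698 to 2212, for a ratio of 0.820 (0.772 to 0.870), and 16S from 22479 to 21455, for a ratio of 0.954 (0.940 to 0.969). Of the 13 mitochondrially encoded protein genes that this ribosome translates, 5 were above 0, with a median log2 ratio of -0.03. Among genes with at least 100 reads 42.1% were above 0. ND1 was highest at 1.14 (1.11 to 1.16), followed by ATP6 at 1.11 and CYTB at 1.08. ND4 was lowest at 0.826 (0.796 to 0.858), then COX1 at 0.858 and ND5 at 0.866. Rescaling adds 0.12 to the log2 ratio of each of these, which takes the median of the 13 above 0 and leaves 12S below it.

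Mitoribosomal proteins listed under other symbols, with the insertase OXA1L that the ribosome docks to, gave 5 of 8 names an entry and a median log2 ratio of 0.02. GADD45GIP1, a large subunit protein at the tunnel exit, went from 427 to 561, for a ratio of 1.31 (1.14 to 1.51), and OXA1L from 1823 to 1628, for a ratio of 0.893 (0.847 to 0.942). CHCHD1 was at 1.06, PTCD3, a pentatricopeptide repeat protein of the small subunit, at 1.02, and DAP3, its GTP-binding protein, at 0.929, each with an interval that holds 1. Of 9 further entries that the reference table names MRPL or MRPS, MRPL12, MRPL45 and MRPS30 were listed at 0. Against 42.1% of genes with at least 100 reads, the other 6 were all above 0. They were MRPS12 at 1.43 (1.02 to 2.02), MRPS25 at 1.29 (1.10 to 1.51), MRPL27, MRPL53 at 1.16 (0.974 to 1.39), MRPL1 at 1.13 (0.797 to 1.60) and MRPL43 at 1.04 (0.963 to 1.12).

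Factors that build the mitochondrial ribosome had a median log2 ratio of 0.14, with 15 of 22 measured members above 0, 7 intervals above 1 and 1 below 1. Among all measured genes 45.5% were above 0, with 12.7% of intervals above 1 and 21.5% below 1. MTG1, a GTPase of large subunit assembly, went from 101 to 165, for a ratio of 1.64 (1.31 to 2.05), and GTPBP10, another such GTPase, had 1.35 (1.07 to 1.70). METTL15, an rRNA methyltransferase of the small subunit, rested on 1 and 2 reads. TRUB2, a pseudouridine synthase, was lowest at 0.725 (0.651 to 0.807), then RPUSD3 at 0.902 and MTERF4 at 0.926 (0.831 to 1.03).

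Translation factors had a median of 0.03, with 8 of 14 above 0, against 45.5% of all measured genes. LRPPRC, which protects mitochondrial mRNAs, went from 42.1 to 58.5, for a ratio of 1.39 (1.18 to 1.64), and TUFM, the elongation factor that brings in aminoacyl-tRNA, from 2755 to 2915, for a ratio of 1.06 (1.02 to 1.10). These were the 2 intervals above 1, and 0 lay below 1, against 12.7% and 21.5% of all measured genes. The initiation factors MTIF3, with 3 and 6 reads, and MTIF2, at 1.37 (0.920 to 2.07), were among the highest. RMND1 at 0.814, GFM2 at 0.821 and GFM1 at 0.888 were lowest, each with an interval that holds 1.

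Mitochondrial transcription and RNA processing had a median of -0.12, with 8 of 18 above 0, although 5 intervals lay above 1 and 3 below 1. Over all measured genes these shares were 45.5%, 12.7% and 21.5%. Of the 18, 9 had at least 100 reads. PNPT1, an exoribonuclease, was at 3.48 (1.38 to 10.5) on 6 and 23 reads, FASTKD1 at 2.09 (1.31 to 3.41) on 27 and 62 reads, and MTERF1 at 1.69 on 7 and 13 reads. TFB2M, a factor for mitochondrial transcription initiation, was at 0.227 (0.0552 to 0.704) on 16 and 4 reads, MTERF2 at 0.404 on 9 and 4 reads, and TFAM, which packs mitochondrial DNA, at 0.701 (0.408 to 1.19). Regulators of nuclear genes for mitochondria gave 5 of 8 above 0, against 45.5% of all measured genes, and a median of 0.07. E2F1 was highest at 2.11 (1.79 to 2.49), then GABPA at 1.24 on 11 and 15 reads and ESRRA at 1.19 (1.07 to 1.32). PPARGC1B at 0.834 (0.544 to 1.28), MYC at 0.877 (0.804 to 0.956) and GABPB1 at 0.886 (0.559 to 1.40) were lowest. The NRF1 entry was listed at 0.

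Cytosolic ribosomal proteins and nuclear-encoded respiratory chain subunits were set beside the mitochondrial ones. Of 64 measured cytosolic ribosomal proteins 22 were above 0, with a median of -0.04, 13 intervals above 1 and 28 below 1. Of 57 respiratory chain subunits 36 were above 0, with a median of 0.05, 22 intervals above 1 and 13 below 1. The mitochondrial ribosomal proteins, with a median of 0.12 and 17 intervals above 1 against 3 below 1, had the highest median of these 3 lists. Of genes with at least 100 reads, 42.1% were above 0, with 17.6% of intervals above 1 and 32.4% below 1. Median reads were 827 for the mitochondrial ribosomal proteins, 2977 for the respiratory chain and 21478.5 for the cytosolic ribosomal proteins. Intervals narrow as reads rise, so the interval counts of the 3 lists are not directly comparable. Rescaling moves the 3 lists alike, by 0.12, which takes the median of the cytosolic ribosomal proteins above 0. The difference between the lists was not tested.

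**Figure D4:**
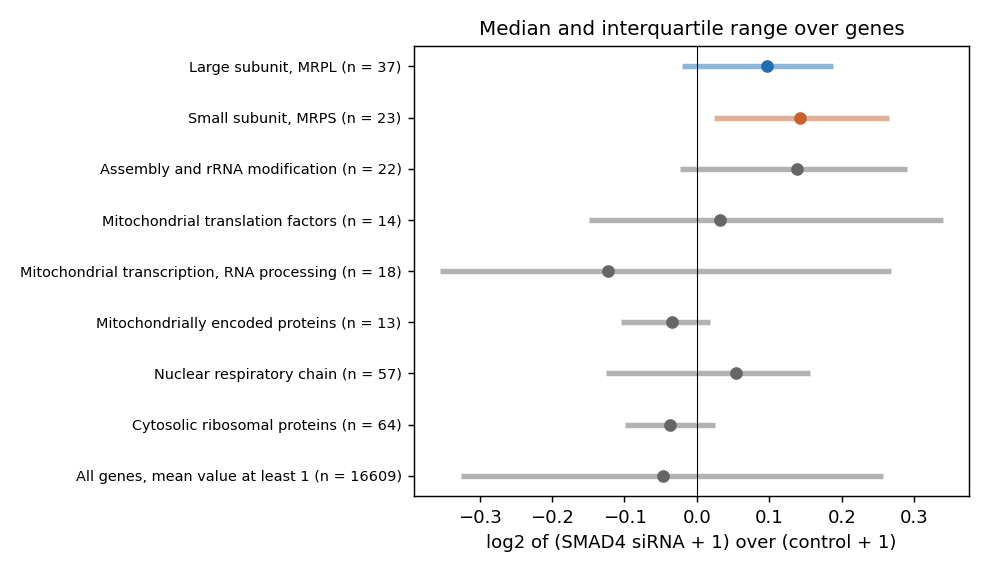
Median (point) and interquartile range over genes (bar) of the log2 ratio for both subunits, the other lists of mitochondrial gene expression, 2 comparison lists and all measured genes. The medians of the large subunit, 0.10, the small subunit, 0.14, and the assembly factors, 0.14, lie to the right, and those of mitochondrial transcription, -0.12, and all genes, -0.05, to the left.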

How the data were processed

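The authors deposited 1 table per library whose name gives the unit as upper-quartile RPKM. Per the labels' protocols, pooled total RNA went into the Ion Total RNA-Seq Kit. The sources used here do not give aligner, counter, genome build or annotation. With 1 divisor per library (890 for control, 980 for SMAD4 siRNA), whole read numbers and a whole transcript length of at most 40000 bases were found for each of the 18428 genes with a value above 0 (tolerance 2e-09 relative plus 1e-06 absolute). The smallest such numbers were used, so reads are lower bounds. The labels name no molecular identifiers, so reads may be copies of the same molecule. Log2 ratios used a pseudocount of 1 and a mean value of at least 1. Named members were the 3 highest and 3 lowest ratios and levels of each subunit, those past 2-fold or at 0, and MRPL12, MRPS18A, MRPS18B, MRPS18C, MRPS30 and MRPS36. The others were named after their values were seen, to account for each member. Of other lists up to 3 at each end were named, and TUFM was chosen after its value was seen. Members and lists were chosen with earlier results of these data known. Of 19902 LOC entries, 2090 received a symbol from the reference table. Alternatives were other pseudocounts, scalings, minimums, a 1.5-fold threshold, means and other memberships. Steps were tested on simulated data drawn from the recovered reads with the same divisors. Those data hold no variation between animals or pools, and they cannot check the divisors. Python 3.11.15 with scipy 1.17.1 was used.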

Additional observations from a re-analysis of the deposited data

How the results depend on the processing

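The medians of both subunits stayed above 0 under the 12 alternatives run for each, which include the mean over members in place of the median. They ran from 0.07, which is the mean, to 0.21 for the large and from 0.08 to 0.26 for the small subunit. The difference of means, large minus small, was -0.11, while that of medians ranged from -0.046 to 0.012. It was 0.012 with members under other names added, 0.0031 with MRPS18A in the large subunit and MRPS36 left out, and 0.0011 without genes that overlap another gene. These changes of sign follow from the membership itself, since the medians lie close together. At 1.5-fold 1 large and 2 small subunit members were higher, against 0 and 1 at 2-fold, as a lower threshold gives. The other 5 alternatives left these counts as they were, and 0 members were lower under each of the 6. MRPL28 was at 0.42 after rescaling, outside its counting interval, as that scaling shifts each gene. The alternatives with a mean value of at least 5 and with at least 100 reads kept the same members. Additions from the reference table, the move of MRPL47 and MRPS28 and the removal of overlapping genes were chosen after seeing the data. No replicate could be left out, and no paired analysis was possible because each group has 1 library. Depth limits single members most: of the 11 with 100 to 300 reads, 3 had an interval above 1 and 1 below it, against 12 and 1 of the 27 with at least 1000 reads. Shares over all genes in these ranges of reads were not computed.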
